A study of Mus musculus with 4 samples.

Results

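The genes for the neurotrophins *Bdnf* and *Ntf3*, the ligand *Gdnf*, and the receptors *Ntrk2*, *Ntrk3*, *Gfra1*, *Gfra2* and *Ret* were compared between the Lgr5+ and Lgr6+ progenitors (called Lgr5+ and Lgr6+ cells here) of the neonatal mouse cochlea. The genes were chosen by symbol, and all 8 were found among the 23997 genes of the table that the authors deposited. The Lgr5+ cells were isolated by their EGFP fluorescence from Lgr5-EGFP-IRES-creERT2 mice, and the mice that gave the Lgr6+ cells, sorted likewise, were Lgr6-EGFP-IRES-CreERT2 mice. Both populations came from untreated mice at postnatal day 3, and the labels give C57BL/6 as the strain. Each knock-in allele carries its reporter at the *Lgr* locus that it is named for, and the study describes the Lgr6+ cells as a subset of the Lgr5+ cells. The labels list 2 libraries for each population. The study's methods state that the RNA of one population was split to make its replicates, so the libraries of a population are not separate animals.

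Neurotrophins are secreted growth factors that keep sensory neurons alive and guide their fibres. BDNF signals mainly through the receptor kinase TrkB, encoded by *Ntrk2*, and neurotrophin-3, the product of *Ntf3*, signals mainly through TrkC, encoded by *Ntrk3*. In the developing inner ear the ligands are made by the sensory epithelium, with *Bdnf* known mainly from hair cells (HCs) and *Ntf3* mainly from supporting cells (SCs), while the Trk receptors are known from the ganglion neurons that innervate them. GDNF and its relatives bind a membrane-anchored GFRα co-receptor, which brings the ligand to the receptor kinase RET.

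The measurement was FPKM (fragments scaled to transcript length and to the mapped fragments of a library), of which the table holds 1 combined value per gene and population. Separate values for each library were not used here. The spread between replicates is therefore unknown, no difference described here has a replicate check, and no statistical test was made. A gene was kept when its FPKM was at least 1 in at least 1 population, and log2 changes are those of FPKM + 1, Lgr6+ minus Lgr5+ cells. "Higher" is used below for a kept gene whose levels were 1.5-fold or more apart on this scale, a limit of size and not of significance. Of 13436 kept genes, 28.5% were higher in Lgr6+ cells, 23.3% were higher in Lgr5+ cells and the median log2 change was 0.03. In one direction or the other, 51.8% of kept genes were past the limit. No counts are given in the table. The paper gives a range of read numbers over its samples but not by population, so the depth behind each population's values is unknown. The smallest steps between low FPKM values, if each is 1 fragment, were worth 3.19 times as much in Lgr5+ cells, so that low values were resolved more coarsely there. By FPKM, the sorting genes did not separate the populations by their labels. The reporter sits at a different *Lgr* locus in each population, and its effect on the levels of these genes was not tested. *Lgr6* had an FPKM of 2.06 in Lgr5+ cells and 2.90 in Lgr6+ cells, a log2 change under the limit, and *Lgr5* had 9.65 and 24.99, so it was higher in Lgr6+ cells. Markers of macrophages, endothelium and mesenchyme were also mostly higher in Lgr6+ cells, with the values given after the pathway genes.

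The promoters of both neurotrophin genes are shown because these were the ligands that differed, in opposite directions, and because the single value of each gene sums over all of its start sites. RefSeq promoters on GRCm38.p6 were found for 5 of the 8 genes, with 7 annotated start sites for *Bdnf* and 2 for *Ntf3*. The 250 bases before the first and the third of the *Bdnf* starts and before the first *Ntf3* start read as follows, 5′ to 3′ on the strand of the gene. Capitals mark the letters TGACG on either strand, the core of the cyclic AMP response element through which neuronal activity is known to act on *Bdnf*.
Bdnf, the first start, chr2:109674450-109674699, plus strand: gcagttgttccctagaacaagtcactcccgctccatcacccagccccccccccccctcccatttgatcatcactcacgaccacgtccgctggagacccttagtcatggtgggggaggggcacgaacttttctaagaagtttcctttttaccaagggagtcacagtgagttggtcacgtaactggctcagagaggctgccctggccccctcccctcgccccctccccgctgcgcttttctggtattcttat
Bdnf, the third start, chr2:109692186-109692435, plus strand: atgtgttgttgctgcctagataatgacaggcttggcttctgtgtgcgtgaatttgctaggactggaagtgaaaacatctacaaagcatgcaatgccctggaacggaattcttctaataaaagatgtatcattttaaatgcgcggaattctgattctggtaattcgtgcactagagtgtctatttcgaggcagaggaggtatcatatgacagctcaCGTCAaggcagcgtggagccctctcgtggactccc
Ntf3, the first start, chr6:126166745-126166994, minus strand: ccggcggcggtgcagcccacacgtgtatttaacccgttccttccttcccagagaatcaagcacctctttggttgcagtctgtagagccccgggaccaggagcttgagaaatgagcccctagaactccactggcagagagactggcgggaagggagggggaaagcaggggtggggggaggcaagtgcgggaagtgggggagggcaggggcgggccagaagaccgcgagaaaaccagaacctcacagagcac
Among the *Bdnf* windows the core stood only before the third start, 1 time, beginning 35 bases upstream, and it stood before neither *Ntf3* start. The core also stood before the first of 2 *Gdnf* starts, beginning 50 bases upstream. It was found in 17.8% of 32851 RefSeq promoter windows of the same length. This is a share per window, and *Bdnf* had 7 windows against 2 for *Ntf3*, so nothing is read from the contrast between them. Which of the starts gave rise to the reads cannot be told from a gene value, and a match of letters is not a measured binding site.

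*Bdnf* (chromosome 2, 109674700 to 109727043) had an FPKM of 9.29 in Lgr5+ cells and 38.7 in Lgr6+ cells. Its level was thus 4.17 times as high in Lgr6+ cells, a log2 change of 1.95. Among all kept genes, 5.02% had a log2 change as large or larger in this direction. By FPKM, *Bdnf* ranked 6748 of all genes in Lgr5+ cells and 2386 in Lgr6+ cells.

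*Ntf3*, on chromosome 6 from 126101412 to 126166744, was the most abundant of the 8 genes in both populations. Its FPKM was 139.8 in Lgr5+ cells and 66.1 in Lgr6+ cells. The Lgr5+ level was 2.12 times the Lgr6+ level, a log2 change of -1.07, and 10.3% of kept genes had a change as low or lower. The gene ranked 808 in Lgr5+ cells and 1466 in Lgr6+ cells.

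The balance between the neurotrophins is a ratio within each population, so multiplying all values of a population by a factor leaves it as it is. In Lgr5+ cells the *Ntf3* level was 15.05 times that of *Bdnf*, and in Lgr6+ cells it was 1.71 times, so the ratio differed 8.82-fold between the populations. *Bdnf* made up 6.23% of the summed FPKM of both neurotrophins in Lgr5+ cells and 36.97% in Lgr6+ cells. The sum itself was 149.1 in Lgr5+ cells and 104.8 in Lgr6+ cells. *Ntf3* was the more abundant of the pair in each population.

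*Gdnf*, on chromosome 15 from 7811011 to 7837575, encodes a survival factor for several classes of neuron and was low in both populations. Its FPKM was 0.346 in Lgr5+ cells and 0.659 in Lgr6+ cells. Neither value reached 1, so the gene was not kept. Its log2 change of 0.30 turned to -0.15 after quantile normalization, so no direction is given for it.

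**Figure D1:**
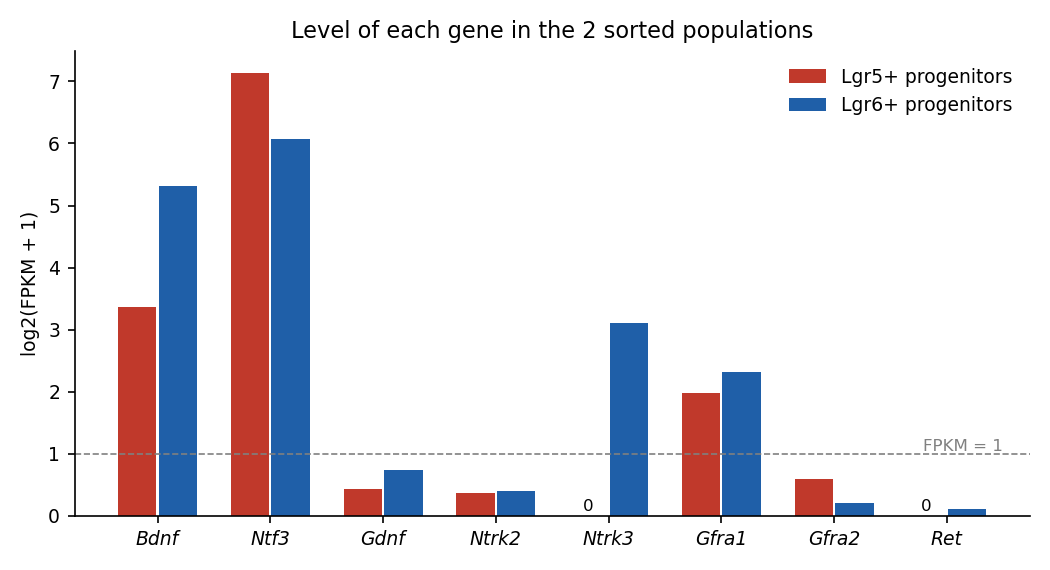
Bars give log2(FPKM + 1), from the authors' combined value, of the 8 genes in Lgr5+ cells (red) and Lgr6+ cells (blue), with a dashed line at an FPKM of 1 and a 0 where a gene is listed at 0. *Bdnf* is taller in Lgr6+ cells (38.7 against 9.29 FPKM), *Ntf3* is taller in Lgr5+ cells (139.8 against 66.1), and *Ntrk3* stands at 0 in Lgr5+ cells only.

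Of the Trk receptors, the *Ntf3* receptor gene *Ntrk3* differed between the populations. *Ntrk3* (chromosome 7, 78192114 to 78577838) was listed at 0 in Lgr5+ cells and had an FPKM of 7.62 in Lgr6+ cells, a log2 change of 3.11. No ratio is given against a value of 0, and the gene passed the filter only through its Lgr6+ value. With the lengths of its 2 coding transcripts, 1 step of the low values in Lgr5+ cells would be an FPKM of 0.0415 to 0.0602. The Lgr6+ value corresponded to between 404 and 586 steps of that population. Of the 7709 genes at or above this FPKM in Lgr6+ cells, 73, or 0.947%, were listed at 0 in Lgr5+ cells. A failed estimate can be written as 0 too, and it cannot be told from absence in this table. None of 15 housekeeping genes examined was at 0 in either population, while 3 of 77 symbols of ribosomal protein genes were at 0 in each population. Of the genes at 0 in Lgr5+ cells, 2 had an FPKM above 100 in Lgr6+ cells, the highest at 3667.

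*Ntrk2*, on chromosome 13 from 58806569 to 59133970, encodes the receptor for BDNF and was also low in both populations. Its FPKM was 0.287 in Lgr5+ cells and 0.312 in Lgr6+ cells, and it was not kept. The log2 change was 0.03, and it was -0.35 after quantile normalization. Both genes make full-length receptor kinases and shorter forms without the kinase, and these are not told apart in a gene value. In each population, *Bdnf* and *Ntf3* were present at levels well above that of *Ntrk2*, and in Lgr6+ cells the level of *Ntrk3* also lay below those of both ligands.

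*Gfra1*, the preferred co-receptor gene of GDNF, was the only one of the GDNF receptor genes among the 8 to be kept. It lies on chromosome 19 from 58235581 to 58455398, an interval that also overlaps *Gm10007*. Its FPKM was 2.95 in Lgr5+ cells and 3.995 in Lgr6+ cells. This difference, a log2 change of 0.34 or a ratio of 1.36, stayed under the limit of 1.5-fold. *Gfra2*, the co-receptor gene preferred by neurturin, lies on chromosome 14 from 70890130 to 70979838. Its FPKM was 0.507 in Lgr5+ cells and 0.154 in Lgr6+ cells. With its coding transcripts these values correspond to 4.4 to 12.9 steps and to 4.3 to 12.5 steps, so both rest on few fragments if a step is 1 fragment.

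*Ret*, the signalling kinase of the family, lies on chromosome 6 from 118151748 to 118197744. It was listed at 0 in Lgr5+ cells and had an FPKM of 0.0740 in Lgr6+ cells, or 7.2 to 13.1 steps. The co-receptor gene *Gfra1* was therefore measured at several FPKM in both populations in which the kinase gene was at or near 0.

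In Lgr5+ cells the order of the levels was *Ntf3*, *Bdnf*, *Gfra1*, *Gfra2*, *Gdnf* and *Ntrk2*, with *Ntrk3* and *Ret* listed at 0. In Lgr6+ cells the order was *Ntf3*, *Bdnf*, *Ntrk3*, *Gfra1*, *Gdnf*, *Ntrk2*, *Gfra2* and *Ret*. Without replicate values it is not known which neighbours in these orders differ beyond their spread. Of the 8 genes, 4 were kept, namely *Bdnf*, *Ntf3*, *Ntrk3* and *Gfra1*. Past the limit were 2 genes higher in Lgr6+ cells and 1 gene higher in Lgr5+ cells, and the median log2 change of all 8 genes was 0.20. These 3 were among 4 kept genes, where 51.8% of all kept genes were past the limit, and *Ntrk3* passed the filter only through its Lgr6+ value, so nothing is read from their number. At a 2-fold limit the same 3 genes were past it, where 18.2% of kept genes were higher in Lgr6+ cells, 11.7% in Lgr5+ cells and 29.9% either way. Among genes with an FPKM of 1 or more in both populations, *Bdnf* and *Ntf3* were past the 1.5-fold limit, where the shares were 21.4%, 22.5% and 43.9%.

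**Figure D2:**
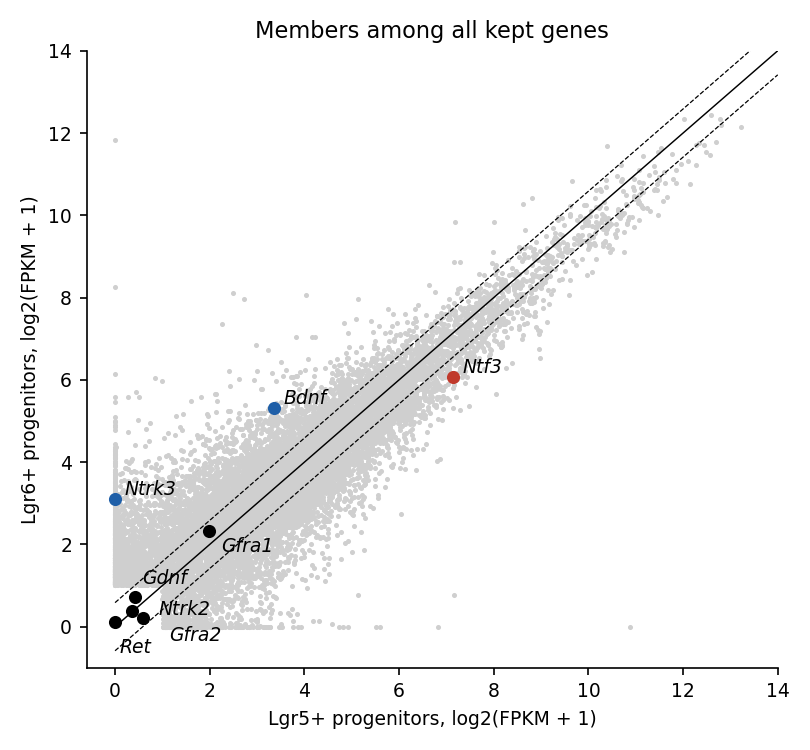
Each grey point is 1 of the 13436 kept genes, with log2(FPKM + 1) in Lgr5+ cells on the x axis and in Lgr6+ cells on the y axis, a solid line at equal values and dashed lines at 1.5-fold. *Ntrk3* and *Bdnf* (blue) lie above the upper dashed line, *Ntf3* (red) lies below the lower one, and the other 5 genes (black) lie between the lines, 4 of them below an FPKM of 1 in both populations.

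For *Ntf3*, the highest of the 8 genes, the kept genes with the most similar pair of values were *Cdh1*, *Fosb* and *Rbm8a*. Their distances in log2(FPKM + 1) over the 2 populations were 0.059, 0.059 and 0.097. *Cdh1*, the gene of the epithelial adhesion protein E-cadherin, had an FPKM of 137.9 and 68.7 in Lgr5+ and Lgr6+ cells. With only 2 values per gene, such likeness says no more than that the levels are close.

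Further ligand and receptor genes of both families were examined as lists. Beside the counts of all pathway and marker lists below stand the shares over all kept genes, 28.5% higher in Lgr6+ cells and 23.3% higher in Lgr5+ cells. A listed gene with an FPKM under 1 in Lgr5+ or in Lgr6+ cells was kept, if at all, only through the other population. Of 7 other neurotrophin genes, all were kept, 2 were higher in Lgr6+ cells and 3 were higher in Lgr5+ cells, with a median log2 change of 0.31 over the kept genes against 0.03 over all kept genes. *Ntf5*, which encodes another ligand of TrkB, had an FPKM of 2.34 in Lgr5+ cells and 0.637 in Lgr6+ cells. *Ngfr*, the gene of the low-affinity receptor that binds all neurotrophins, had an FPKM of 2.04 and 0.531. *Ntf5* and *Ngfr* were therefore past the limit toward Lgr5+ cells, at far lower levels than *Ntf3*, and passed the filter only through their Lgr5+ values. Among genes with an FPKM of 1 or more in both populations, 1 gene of this list was higher in Lgr6+ cells and 1 in Lgr5+ cells.

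Sortilin-type receptors bind the uncleaved proneurotrophins and take part in their sorting. *Sort1* itself was higher in Lgr5+ cells, with an FPKM of 8.80 against 5.08. *Sorl1* had an FPKM of 0.280 in Lgr5+ cells and 4.65 in Lgr6+ cells, a log2 change of 2.14, and passed the filter only through its Lgr6+ value. *Sorcs1* had 4.03 and 7.09. *Sorcs2* had 1.22 and 1.74 and *Sorcs3* had 1.45 and 2.34, neither past the limit, and the difference of *Sorcs2* turned negative (-0.06) after quantile normalization. *Sorcs1* was under the limit after that normalization, which left *Sorl1* as the 1 gene of this list higher in Lgr6+ cells.

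Among 9 other genes of the GDNF family, 7 were kept, of which 5 were higher in Lgr6+ cells and 1 was higher in Lgr5+ cells. The shares over all kept genes were 28.5% and 23.3%. The median log2 change of the kept genes of this list was 0.68, against 0.03 over all kept genes. *Nrtn*, the gene of neurturin, was the most abundant ligand of the family, with an FPKM of 26.8 in Lgr5+ cells and 45.3 in Lgr6+ cells. *Artn*, the gene of artemin, had 5.79 and 9.32. *Pspn*, the gene of persephin, was listed at 0 in Lgr5+ cells and had 0.134 in Lgr6+ cells. Thus *Nrtn* exceeded *Gdnf* in both populations by FPKM.

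The co-receptor genes for artemin and persephin differed more than those among the 8 genes. *Gfra3* had an FPKM of 0.645 in Lgr5+ cells and 5.47 in Lgr6+ cells, a log2 change of 1.98. *Gfra4* had 1.19 and 11.5, a ratio of 9.63 and a log2 change of 2.51. In Lgr6+ cells *Gfra4* was the highest of the 4 *Gfra* genes, whereas in Lgr5+ cells *Gfra1* was. *Gdf15* had an FPKM of 3.05 in Lgr5+ cells and 0.134 in Lgr6+ cells, and the gene of its receptor, *Gfral*, was listed at 0 in both.

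*Ncam1* and *Sdc3*, whose products can bind GDNF without RET, were measured in both populations. *Ncam1* had an FPKM of 12.2 in Lgr5+ cells and 18.4 in Lgr6+ cells, a log2 change of 0.56 that stayed under the limit. *Sdc3* had 5.09 and 8.78 and was past it. *Artn* and *Sdc3* were under the limit after quantile normalization, and *Nrtn*, *Gfra3* and *Gfra4* were not.

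**Figure D3:**
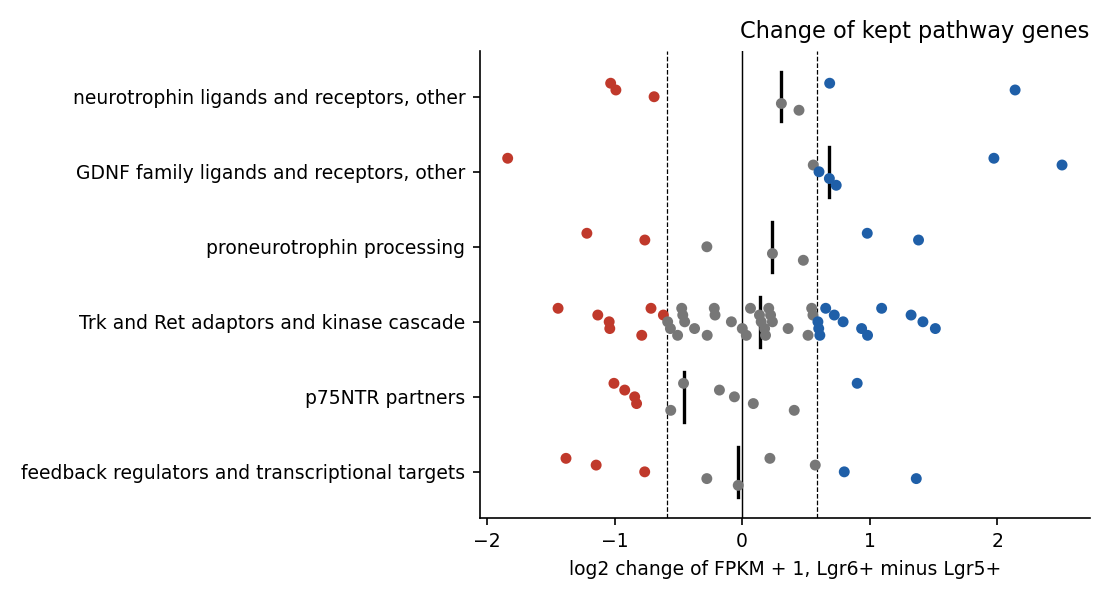
Points are kept genes of 6 pathway lists, with the log2 change of FPKM + 1 (Lgr6+ minus Lgr5+) on the x axis, blue where higher in Lgr6+ cells, red where higher in Lgr5+ cells and grey under 1.5-fold (dashed lines), and a black bar at the list's median. The medians run from -0.46 for partners of p75NTR to 0.68 for the GDNF family, and each list holds genes on both sides of 0.

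Proneurotrophins are cut to their mature forms inside the cell by proprotein convertases and outside it by plasmin. Of 12 processing genes, 7 were kept, 2 were higher in Lgr6+ cells and 2 were higher in Lgr5+ cells, with a median log2 change of 0.24 over the kept genes. *Cpe*, a carboxypeptidase that sorts and trims prohormones, had an FPKM of 79.4 in Lgr5+ cells and 208.9 in Lgr6+ cells. *Pcsk5* had 7.90 and 16.6. Higher in Lgr5+ cells were *Pcsk1*, with 2.79 against 0.630, and the plasminogen activator gene *Plat*, with 45.6 against 26.5.

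The adaptors and the kinase cascade used by Trk receptors and RET gave no common direction. Of 48 genes, 44 were kept, 12 were higher in Lgr6+ cells, 7 were higher in Lgr5+ cells and 25 were under the limit. The shares over all kept genes were 28.5% and 23.3%. The median log2 change of the list was 0.14, against 0.03 over all kept genes. The largest changes toward Lgr6+ cells were those of the ubiquitin ligase genes *Cbl* (1.52) and *Nedd4l* (1.42) and of the phospholipase gene *Plcg2* (1.33). *Cbl* and *Plcg2* had an FPKM of only 0.147 and 0.273 in Lgr5+ cells and passed the filter only through their Lgr6+ values. Toward Lgr5+ cells the largest changes were those of the adaptor genes *Sh2b3* (-1.44), *Grb10* (-1.13) and *Crk* (-1.04). *Sh2b3*, with an FPKM of 0.973 in Lgr6+ cells, passed the filter only through its Lgr5+ value. After quantile normalization 9 genes were past the limit on each side.

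Of 11 genes for partners of the low-affinity receptor p75NTR, all 11 were kept, 4 were higher in Lgr5+ cells and 1 was higher in Lgr6+ cells, with a median log2 change of -0.46. *Ngfrap1* had an FPKM of 925.6 in Lgr5+ cells and 488.6 in Lgr6+ cells, far above *Ngfr* itself. *Traf6* had 2.89 and 0.939 and *Ripk2* had 6.24 and 3.04. *Lingo1* was the exception, with 0.579 and 1.95, and it was no longer past the limit after quantile normalization.

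Among 12 feedback regulators and transcriptional targets of these receptors, which other receptor kinases also control, 9 were kept, 3 were higher in Lgr5+ cells and 2 were higher in Lgr6+ cells. The median log2 change was -0.03. *Etv5* had an FPKM of 14.6 in Lgr5+ cells and 4.97 in Lgr6+ cells, *Etv4* had 13.6 and 7.61, and the ERK phosphatase gene *Dusp6* had 34.7 and 15.2. These 3 were higher in Lgr5+ cells. Higher in Lgr6+ cells were *Lrig1*, with 3.003 against 5.98, and *Spry4*, which was listed at 0 in Lgr5+ cells and had 1.58 in Lgr6+ cells. Its relatives *Spry1* (13.3 and 15.6) and *Spry2* (20.8 and 17.0) were under the limit.

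Markers of the cell types that could hold these transcripts also differed between the populations, and each value is given as measured. In a bulk sample, more cells of a type and more RNA of a gene per cell cannot be told apart. All 7 SC markers were kept, of which 2 were higher in Lgr5+ cells, 1 (*Lgr5*) was higher in Lgr6+ cells and 4 were under the limit. The FPKM of *Sox2* was 139.6 in Lgr5+ cells and 54.8 in Lgr6+ cells, higher in Lgr5+ cells as was *Ntf3*, and that of *Jag1* was 107.5 and 59.2. *Fgfr3*, *Cdkn1b*, *Prox1* and *Lgr6* were those under the limit. The summed level of the 7 SC markers was 413 in Lgr5+ cells and 259 in Lgr6+ cells, and without *Sox2* it was 273.8 and 203.8.

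Of 8 HC markers, all were kept, 6 were higher in Lgr6+ cells, as was *Bdnf*, and none was higher in Lgr5+ cells. The shares over all kept genes were 28.5% and 23.3%. *Otof*, the gene of the HC synaptic protein otoferlin, had an FPKM of 41.6 in Lgr5+ cells and 171.0 in Lgr6+ cells. Its ratio of 4.11 was the highest of the 8 HC markers, and the others ran from 0.856 (*Pvalb*) to 2.84 (*Gfi1*), against 4.17 for *Bdnf*. *Myo7a* had 19.3 and 47.0, *Gfi1* had 19.5 and 55.5, and *Pou4f3* had 31.0 and 49.0, whereas *Atoh1* stayed under the limit with 30.9 and 36.4. The summed level was 710.1 in Lgr5+ cells and 915.2 in Lgr6+ cells, and *Pvalb*, the largest part of it, had 476.9 and 408.4, a difference that changed sign after quantile normalization. Without *Pvalb* the sums were 233.2 and 506.8. The cells were collected by their EGFP fluorescence, and the study's own staining of sorted cells for HC and SC markers is not part of these data. The part of HC transcripts in the difference of *Bdnf* was not tested.

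*Ntrk3* can be expressed by neurons and other cells around the epithelium. Of 11 markers of spiral ganglion neurons, all were kept, 4 were higher in Lgr6+ cells and 2 were higher in Lgr5+ cells, with a median log2 change of 0.20. After quantile normalization 2 were higher in Lgr6+ cells and 3 in Lgr5+ cells, so the markers gave no steady direction. Their summed level was 345.7 in Lgr5+ cells and 276.6 in Lgr6+ cells, and none was at 0 in Lgr6+ cells. The order of the sums rests on *Isl1*, with an FPKM of 232.9 and 117.0, since without it they were 112.9 and 159.6. Higher in Lgr5+ cells beside *Isl1* was *Tubb3*, a defining neuronal gene, with an FPKM of 1.18 and 0.0959. Higher in Lgr6+ cells were *Snap25*, which HCs also express, with 7.63 and 53.4, *Map2* with 6.57 and 14.8, *Rbfox3* with 11.7 and 18.04, and *Prph*, which like *Ntrk3* was listed at 0 in Lgr5+ cells and had 1.04 in Lgr6+ cells. The other 5 were under the limit. The part of neuronal transcripts in the difference of *Ntrk3* was not tested.

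Genes of cells outside the epithelium were mostly at their higher level in Lgr6+ cells, as was *Ntrk3*. Of 9 Schwann cell and glial markers, 6 were kept, 3 were higher in Lgr6+ cells and 1 was higher in Lgr5+ cells, and their summed level was 135.5 in Lgr5+ cells and 223.3 in Lgr6+ cells. *Pmp22*, which encodes a protein of peripheral myelin, had an FPKM of 0.784 and 64.5. *Sox10*, which otic epithelium also expresses, had 39.5 and 50.5, and *Foxd3* was listed at 0 in Lgr6+ cells.

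Of 6 mesenchyme and fibrocyte markers, 4 were higher in Lgr6+ cells, where the share over all kept genes was 28.5%. Their summed level was 49.6 in Lgr5+ cells and 401 in Lgr6+ cells. For 7 macrophage markers the sums were 1.12 and 178.3, with 5 higher in Lgr6+ cells and 5 listed at 0 in Lgr5+ cells. For 5 endothelial markers they were 4.92 and 51.6, with all 5 higher in Lgr6+ cells. For 5 melanocyte markers they were 0.507 and 3.85, with 1 higher in Lgr6+ cells and *Mlana* and *Tyrp1* at 0 in both. Among genes with an FPKM of 1 or more in both populations, 0 macrophage, 2 endothelial, 0 melanocyte and 4 mesenchyme markers were higher in Lgr6+ cells. The other macrophage, endothelial and melanocyte genes counted as higher passed the filter only through their Lgr6+ values, so nothing is read from their number. Of the macrophage genes, *C1qb* was listed at 0 in Lgr5+ cells and had an FPKM of 69.9 in Lgr6+ cells. *C1qa* had 0.905 and 16.2, *Cx3cr1* had 0.215 and 0.681, and *Ptprc* had 0 and 0.00814. The part of cells outside the epithelium in the differences of *Ntrk3*, *Gfra3* and *Gfra4* was not tested.

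**Figure D4:**
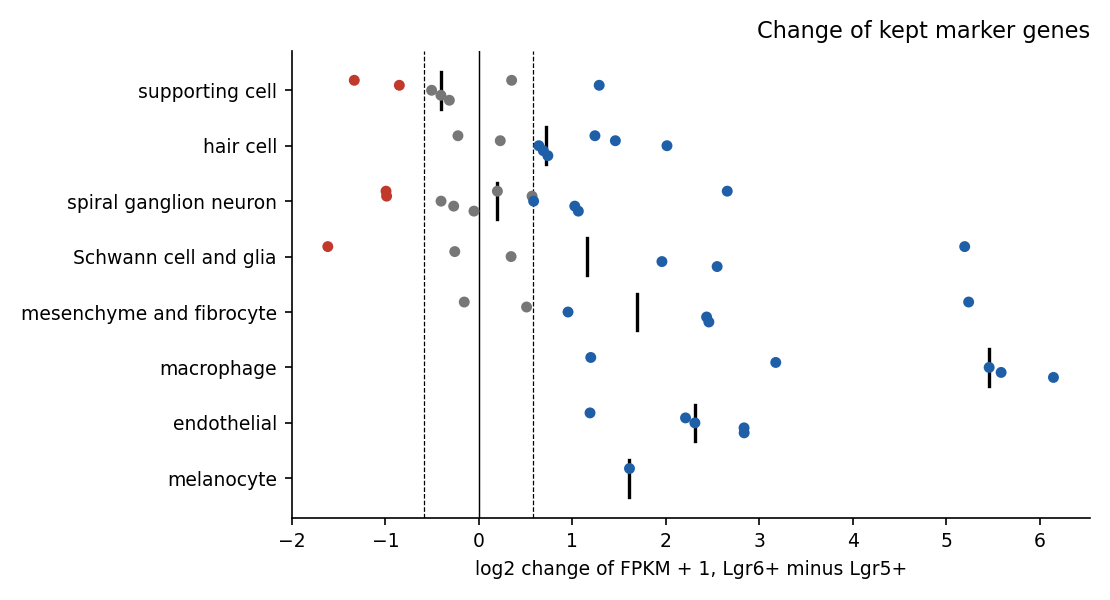
Points are kept marker genes of 8 cell types, with the log2 change of FPKM + 1 (Lgr6+ minus Lgr5+) on the x axis, colours and dashed lines at 1.5-fold as for the pathway lists, and a black bar at each median. The SC median is negative (-0.41), the HC median is 0.71, and the macrophage median of 5.46 is the highest of the 8 lists. That macrophage median is over 5 kept genes, and over all 7 macrophage markers it was 3.18.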

How the data were processed

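RNA-Seq values of EGFP+ cells sorted from P3 cochleae were taken from the table that the authors deposited, in which each FPKM combines the libraries of 1 population. The authors made libraries from low-input RNA (SMART-Seq v4), with Trimmomatic, TopHat and Cufflinks as the tools for trimming, mapping and FPKM on RefGene annotation. Versions are not given in the sources used here. The kit does not mark strand, so reads of overlapping antisense genes cannot be told apart. The paper names mm9 and the submitters' processing notes name mm10. Of 19493 gene symbols, 99.1% of the deposited intervals overlapped the gene in GRCm38 and 12.7% in NCBIM37, so positions are read as GRCm38, with 1 added to each start since the file counts from 0. The deposited fold changes, *p*-values and *q*-values hold the authors' own comparison and were not used.

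FPKM values were compared as log2(FPKM + 1), a scale that understates the change of low genes. A gene was kept if either population reached an FPKM of 1, and the limit was 1.5-fold. The limma fit, which needs a value per sample, could not be made. Steps of low FPKM were found over 6914 genes with 1 annotated transcript, after taking 200 bases off each length. The 8 genes and all lists were chosen with earlier results of these data known. Named were all 8 genes, the listed ligands and receptors of both families, up to 3 genes in each direction of each other list, and the 3 genes nearest to the most abundant of the 8. Other genes, the 15 housekeeping genes and the motif were chosen after their values were seen. Alternatives were a pseudocount of 0.1, no filter, a minimum FPKM of 5 in either or of 1 in both populations, quantile normalization, a common upper quartile, a 2-fold limit and a ratio without pseudocount. Some listed genes are not reported here and were left out of the lists' counts and sums. The script that makes the calls was tested on simulated data with known folds. That checks the code only, since the spread of the real values is unknown. Python 3.11.15, numpy 2.4.6, pandas 2.3.3 and matplotlib 3.10.9 were used.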

Additional observations from a re-analysis of the deposited data

How the results depend on the processing

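*Bdnf* was past the limit toward Lgr6+ cells and *Ntf3* toward Lgr5+ cells under all 8 alternatives, with log2 changes from 1.92 to 2.06 and from -1.08 to -0.94. *Ntrk3* was past the limit under 6 of them and could not be judged under the other two, a minimum FPKM of 1 in both populations and a ratio without a pseudocount, since it is listed at 0 in Lgr5+ cells. These left 1 of the 8 genes, instead of 2, higher in Lgr6+ cells. The log2 change of *Ntrk3* was 6.27 with a pseudocount of 0.1, against 3.11, so its size is set by the pseudocount. Over all kept genes, 3826 were higher in Lgr6+ cells and 3136 in Lgr5+ cells. These counts were 2443 and 1575 at 2-fold and 2415 and 2414 at a minimum FPKM of 5. They were 2392 and 2516 at a minimum of 1 in both populations and 3307 and 3556 after quantile normalization, so the excess toward Lgr6+ cells was lost or turned under these filters and this scaling. No paired analysis was possible because the table holds 1 value per population, and for the same reason no replicate could be left out. *Gdnf*, *Ntrk2*, *Gfra2* and *Ret*, all under an FPKM of 1, were not past the limit with the main settings, and without replicate values their spread is unknown. The sums of marker lists without their most abundant gene were chosen after seeing the data.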
